A study of Mus musculus with 2 samples.

Results

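The glutamate receptors and glutamate transporters are described here in the prefrontal cortex (PFC) of stressed and unstressed mice. The set holds 30 genes, chosen by name with no threshold on their values, although earlier results of these data were known. They are 17 subunits of ionotropic receptors, 7 metabotropic receptors, 3 vesicular transporters and 3 plasma membrane transporters. All 30 had at least 1 probe on the arrays, out of 37069 gene names in all, and 29 of them gave a ratio between the groups.

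The study asked how gene expression in the PFC differs after chronic mild stress (CMS). Both groups were male C57Bl/6 N sea mice and were 9 to 10 weeks old when the experiment began. The CMS group lived singly and met unpredictable mild stressors for 4 weeks, such as cage tilt, a wet cage, restraint, forced swimming and foot shock. The control (C) group lived together in cages with ordinary care, so that stress and single housing cannot be told apart. Tissue was taken on the day after the last stressor. For each group, 1 pool of RNA was hybridized to 1 one-color Agilent array, and C and CMS below stand for these pools. The series' design text gives 7 mice per pool, whereas the methods give 10 mice per group for the arrays and quantitative PCR. With 1 array per group there was no spread between mice, no test and no p-value, and every difference below is a difference between these 2 arrays. In whole tissue, fewer cells of a type and less RNA per cell cannot be told apart.

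Glutamate is the main excitatory transmitter of the cortex. It is loaded into vesicles by vesicular transporters, acts on ion channels (the AMPA, NMDA and kainate receptors) and on G protein-coupled metabotropic receptors, and is cleared mostly by transporters of astrocytes. Receptor channels are assembled from several subunits, so the subunit genes are measured apart but act together. Subunit composition sets how fast a channel opens and closes and how much calcium it passes.

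Signals are given as processed intensities scaled to a mean of 2500 on each array. Ratios are log2 of the CMS signal over the C signal. Probes differ in how strongly they bind, so levels are compared between the groups and never between genes. On the C array 65.2% of spots exceeded background clearly, and on the CMS array 65.9%. The log2 ratio varied between spots of 1 probe with an SD of 0.13 over 342 probes. This SD was 0.26 for probes with a mean signal below 100, 0.11 from 100 to 1000, and 0.056 above 1000. It holds for repeated spots on these arrays, and the variation between mice or RNA pools is not part of it. The arrays' own software gave a larger error of about 0.20 for most member probes.

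Most glutamate receptor and transporter genes were close to equal in the pools. The median log2 ratio of the 29 genes was -0.03, as was the median of all 27098 genes with a ratio, and their interquartile range was 0.15 against 0.20 for all genes. None of the 29 passed 2-fold, where 2.52% of all genes did in either direction. A smaller size was counted too, a signal over 25% higher or over 20% lower in CMS than in C, which is the same distance from 0 on the log2 scale (0.32) in both directions. On the probe used for each gene, Grin3a alone passed it, and was lower in CMS. Of all genes, 7.26% were lower by this size and 7.59% higher. Between these limits lay 28 of the 29 glutamate genes (96.6%), against 85.2% of all genes and 87.8% of the genes with a symbol. These comparisons with all genes were not matched for signal, on which the SD between spots depends. Of all genes with a ratio, 1656 had a probe clear of background on 1 array only, and of the members none. Signs were mixed, with 11 genes above 0 and 18 below 0 (62.1%), and 58.8% of all genes were below 0 as well.

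**Figure D1:**
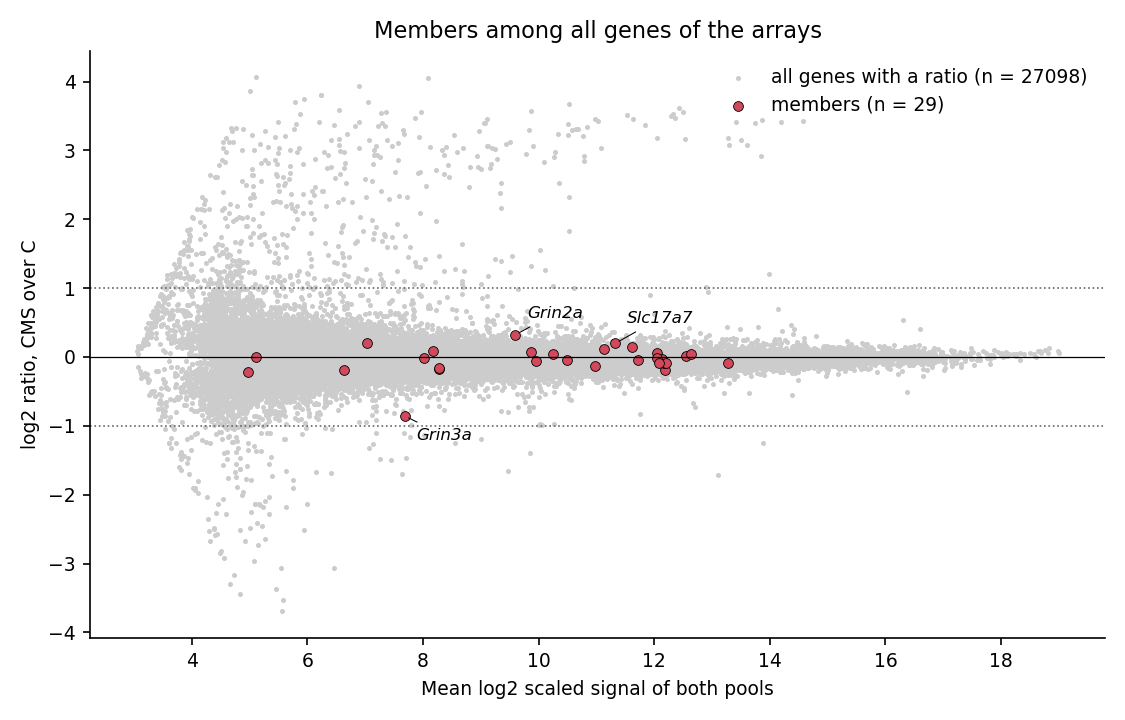
The log2 ratio of the CMS pool over the C pool (vertical axis) is plotted against the mean log2 scaled signal of both pools (horizontal axis) for 27098 genes (grey) and for the 29 glutamate genes with a ratio (red), with dotted lines at 2-fold. The red points lie along 0 except for Grin3a, at -0.86, and the widest scatter of the grey points is at low signals.

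A narrower threshold was set after the values were seen, at 2 SD between spots of the same signal range. It was passed by 7 of the 29 genes (24.1%), and by 22.7% of all genes, so the share was near that of the arrays as a whole. Grin2a, Grin2b, Grm7 and Slc17a7 were higher in the CMS pool, of which Grin2b and Grm7 turned below 0 where the arrays were left unscaled, and Grin3a, Gria3 and Grik3 were lower. In all genes 8.84% were higher and 13.9% lower by this threshold. It leaves out the software's larger error, whose intervals for the named genes are given with Grin3a below.

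**Figure D2:**
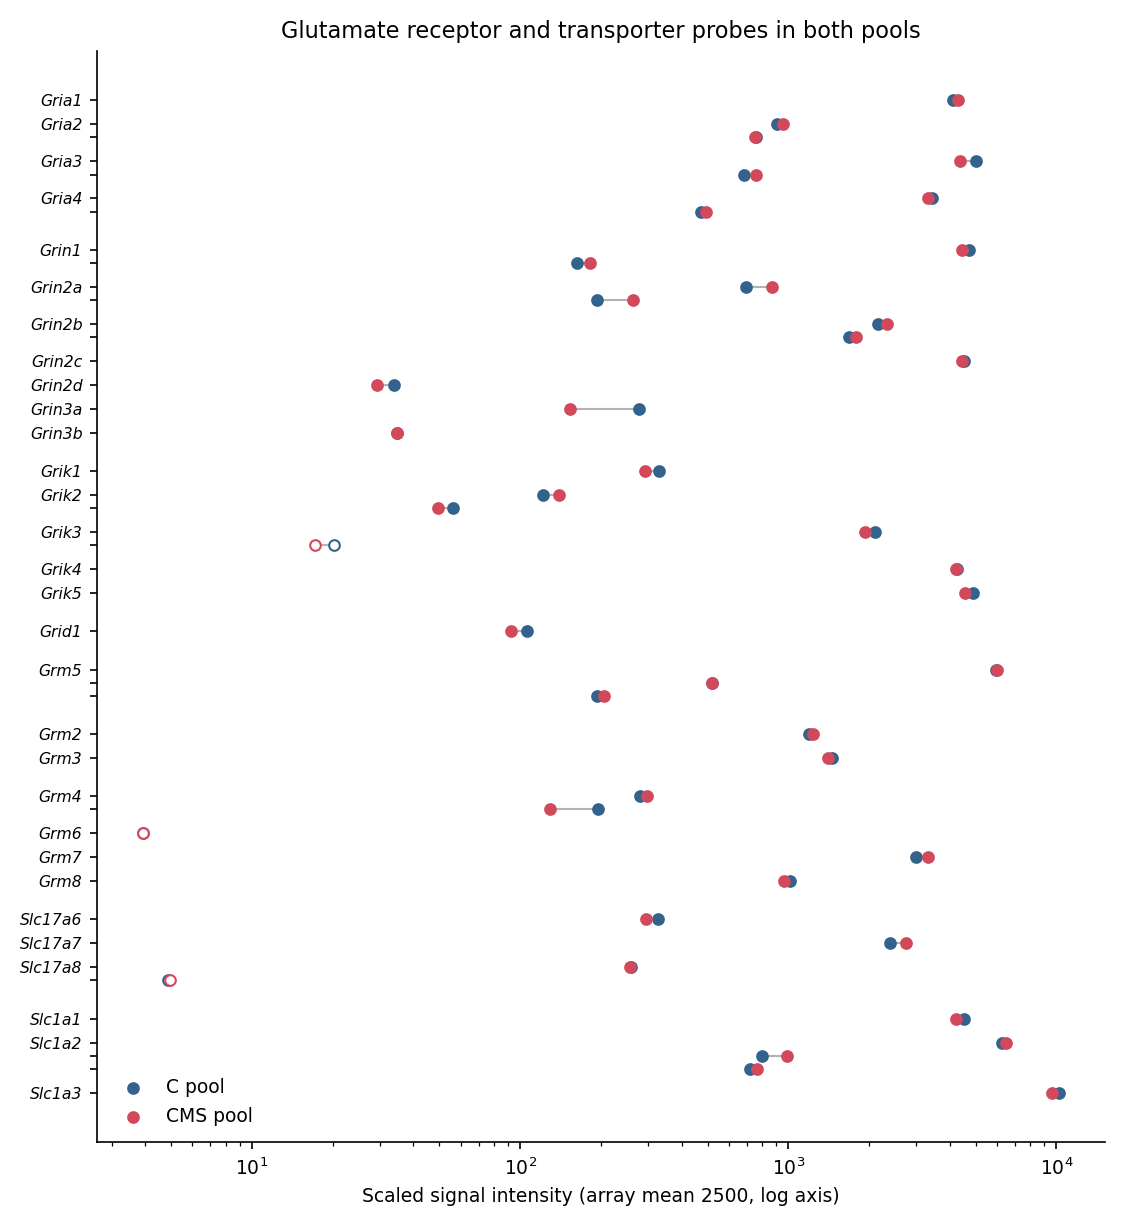
Scaled signal intensity on a log axis is shown for each of the 44 probes of the 30 genes, with the C pool in blue and the CMS pool in red, further probes of a gene on the lines under its name, and open circles for signals not well above background. The pools nearly coincide for most probes, and the longest grey lines are those of Grin3a, the second probe of Grm4 and both probes of Grin2a.

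Gria1 to Gria4 encode the subunits of AMPA receptors, which carry most fast excitatory transmission. Gria1 was measured at 4128 in C and 4306 in CMS (log2 ratio 0.06). Gria2, whose subunit keeps the channel poorly permeable to calcium, was measured at 907 and 956 (log2 ratio 0.08). Its second probe read 757 and 754 (log2 ratio -0.01). All 3 of these differences were smaller than the spread between spots over all probes, although that of Gria1 was 1.09 times the SD of its own signal range.

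Gria3 was measured at 4992 in C and 4364 in CMS, a log2 ratio of -0.19 or 3.49 times the SD between spots of this brightness. A dimmer probe for the same accession went the other way, from 685 to 758 (log2 ratio 0.15). Gria3 therefore has no single direction on these arrays. Gria4 was measured at 3440 and 3329 (log2 ratio -0.05), and its second probe, for another accession, at 472 and 493 (log2 ratio 0.06). The 4 AMPA receptor genes had a median log2 ratio of 0.01, and 2 of them were above 0.

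NMDA receptors combine the obligatory subunit of Grin1, which binds glycine, with glutamate-binding subunits of the Grin2 genes. Grin1 was measured at 4729 in C and 4454 in CMS (log2 ratio -0.09). The second Grin1 probe, for another accession, read 162 and 183 (log2 ratio 0.17), so the direction differed between the probes.

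Grin2a and Grin2b encode the main Grin2 subunits of the adult forebrain, and both were higher in the CMS pool on all of their probes, although both Grin2b probes were lower in CMS where the arrays were left unscaled (-0.06 for the brighter). Grin2a (NM_008170) was measured at 693 in C and 866 in CMS, a log2 ratio of 0.32. Its second probe, for the same accession, read 194 and 264 (log2 ratio 0.45). The rise was 24.97% on the brighter probe, just under the limit of 25%, and 36.2% on the dimmer probe, or 3.05 and 4.23 times the SD between spots. With the authors' deposited scaling the brighter probe was at 0.334 and passed the limit. Grin2b was measured at 2154 and 2333 (log2 ratio 0.12), and its second probe at 1686 and 1790 (log2 ratio 0.09). The brighter probe passed 2 SD only narrowly, at 2.07 times, and under normexp background correction with quantile normalization it was at 0.007. The Grin2a ratio exceeded the Grin2b ratio by 0.21 with an SD of 0.12 from the spots, a difference that 1 scaling factor per array cannot alter.

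Grin2c, a subunit best known from the cerebellum, was measured at 4518 in C and 4434 in CMS (log2 ratio -0.03). Grin2d was measured at 34.0 and 29.3 (log2 ratio -0.22), and Grin3b at 34.7 in both pools (log2 ratio 0.00). These Grin2d and Grin3b signals lay close to the lowest signal well above background, which was 17.8 in C and 17.6 in CMS, and their ratios are the least precise of the NMDA receptor genes.

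Grin3a (RefSeq NM_001033351) differed most between the pools. It encodes an NMDA receptor subunit that binds glycine in place of glutamate and lowers the calcium flow of the channel. Its signal was 277 in C and 153 in CMS, well above background in both. The log2 ratio of -0.86 is a 1.81-fold lower signal, or 8.13 times the SD between spots of this brightness. The software's error gave a 95% interval of -1.27 to -0.45, which covers the measurement of the spot only. For the other genes past the narrower threshold, the interval of the probe used reached to both sides of no difference. It was -0.08 to 0.72 for Grin2a, -0.20 to 0.60 for Slc17a7 and -0.59 to 0.21 for Gria3. For Grm7 it was -0.25 to 0.55, for Grik3 -0.53 to 0.27 and for Grin2b -0.28 to 0.52. The interval of the dimmer Grin2a probe was 0.04 to 0.85. The 70 spots around the Grin3a spot on the slide had a median log2 ratio of -0.03. Grin3a has 1 probe with 1 spot on each array, so no second reading of this gene exists here. Its ratio lay below that of Grin1 by 0.77 (1.71-fold), with an SD of 0.12.

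**Figure D3:**
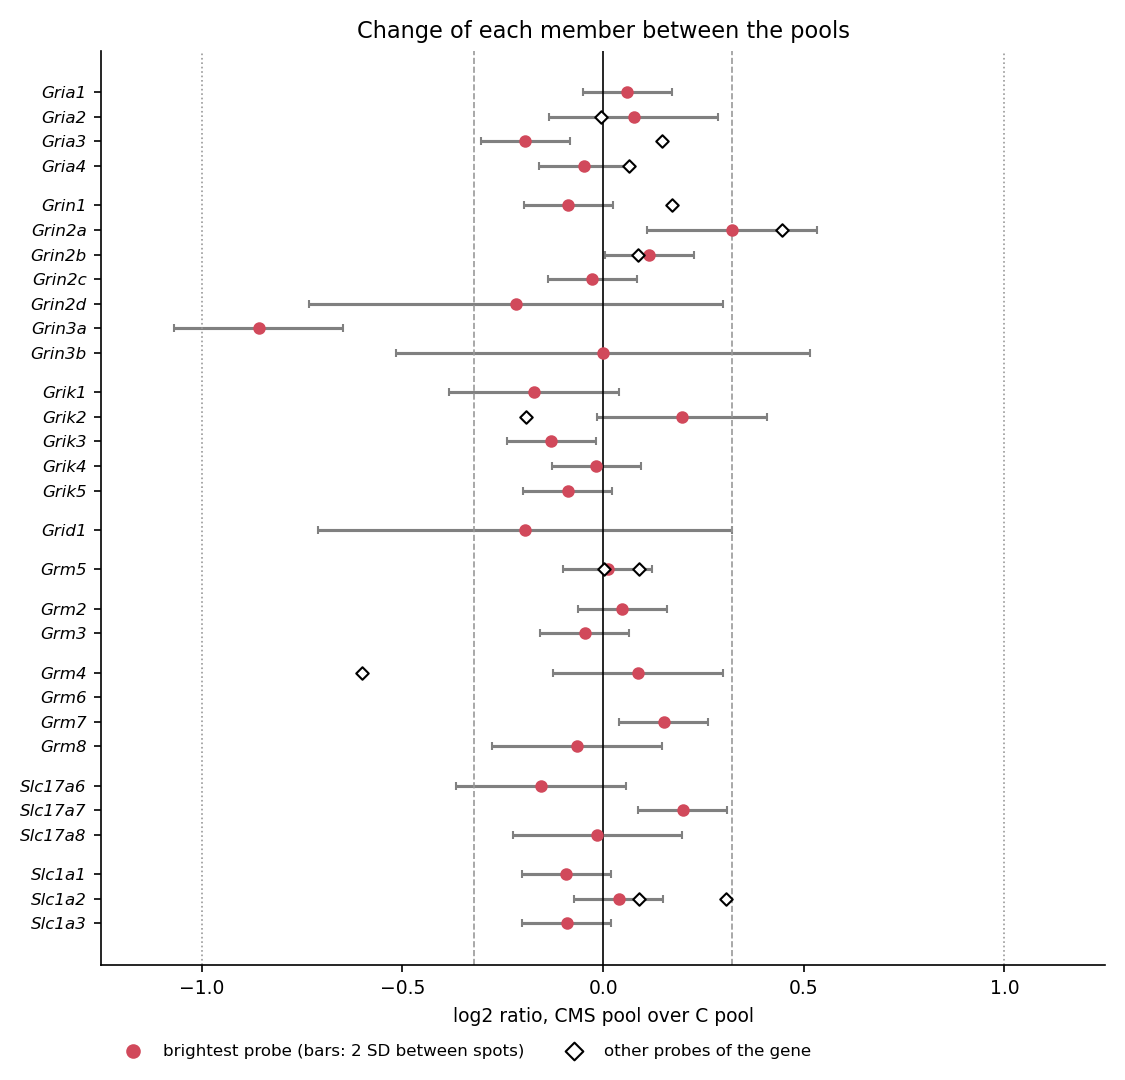
The log2 ratio of CMS over C is given for the probe used for each gene (red, with bars of 2 SD between spots of that signal range) and for its other probes (open diamonds), with dashed lines at 25% higher and 20% lower and dotted lines at 2-fold. Grin3a stands alone on the left, the Grin2a probes lie together at 0.32 and 0.45, and the probes of Gria3, Grin1, Grik2 and Grm4 fall on opposite sides of 0.

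Kainate receptors act on both sides of the synapse, and Grik4 and Grik5 encode their high-affinity subunits. Grik1 was measured at 328 in C and 292 in CMS (log2 ratio -0.17). Grik3 was measured at 2108 and 1927 (log2 ratio -0.13), 2.32 times the SD between spots, and its second probe was not well above background in either pool. Grik4 was measured at 4253 and 4205 (log2 ratio -0.02). Grik5, at 4864 and 4576, had a log2 ratio of -0.09. These 4 genes were all below 0, although each by less than 20%, and Grik4 was at 0.00 to 0.02 under 3 of the other normalizations.

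Grik2, unlike them, was measured at 122 in C and 140 in CMS (log2 ratio 0.20). A dimmer probe, for another accession, read 56.3 and 49.3 (log2 ratio -0.19), so the Grik2 probes disagreed in sign. The median over the 5 kainate receptor genes was -0.09. Grid1, a delta receptor subunit that organizes synapses rather than acting as an ordinary glutamate-gated channel, was measured at 106 and 92.3 (log2 ratio -0.20). Its probe lies in the dimmest signal range, where the SD between spots was 0.26. Over all 17 ionotropic subunits the median was -0.05 with 12 below 0, against 58.8% of all genes.

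Metabotropic receptors couple to G proteins. Grm5, a postsynaptic receptor that releases calcium from stores, was measured at 5944 in C and 5991 in CMS (log2 ratio 0.01). Its other probes read 519 and 520 (log2 ratio 0.00) and 194 and 206 (log2 ratio 0.09). All 3 Grm5 probes thus lay within 0.09 of no difference.

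Grm2 and Grm3 encode group II receptors, which lower cyclic AMP and restrain glutamate release. Grm2 was measured at 1192 and 1233 (log2 ratio 0.05). Grm3, made by astrocytes as well as neurons, was measured at 1457 and 1412 (log2 ratio -0.05). Neither differed by more than 1 SD between spots of their signal range.

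Group III receptors sit mostly on nerve endings. Grm7 was measured at 2992 in C and 3323 in CMS, a log2 ratio of 0.15 and 2.72 times the SD between spots. Grm8 was measured at 1011 and 966 (log2 ratio -0.06). Grm6, known as a receptor of retinal bipolar cells, was not well above background in either pool and gave no ratio.

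Grm4 was measured at 281 and 298 (log2 ratio 0.09), but a second probe of the same accession fell from 196 to 129 (log2 ratio -0.60), a signal that fell by 34.1%. These probes differed by 0.69, more than the probes of any other gene of the set. Of the 10 genes with several usable probes, 6 had probes of opposite sign, a share that was not counted over all genes. The median difference between probes over the 10 genes was 0.19, against 0.13 over 4235 genes with a symbol and several probes. The 6 metabotropic receptors with a ratio had a median of 0.03.

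Vesicular transporters mark glutamatergic neurons, with Slc17a7 (VGLUT1) prevailing in the cortex and Slc17a6 (VGLUT2) in the thalamus and other subcortical sites. Slc17a7 (NM_182993) was measured at 2399 in C and 2753 in CMS. Its log2 ratio of 0.20, a 14.8% higher signal, was 3.57 times the SD between spots. Slc17a6 went the other way, from 327 to 294 (log2 ratio -0.15), which is 1.47 times the SD for its signal range. The Slc17a7 ratio lay above that of Slc17a6 by 0.35 (1.28-fold), with an SD of 0.12 from the spots. The software's error was larger, at 0.20 for the Slc17a7 ratio and 0.21 for the Slc17a6 ratio. Slc17a8 (VGLUT3), carried by scattered neurons that mostly use another transmitter too, was measured at 260 and 257 (log2 ratio -0.01), and its second probe was not well above background in either pool.

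The promoters of Slc17a7 and Slc17a6 are shown because the ratios of these genes of 1 family had opposite signs. Each sequence is the 250 bases before a transcription start in RefSeq, build GRCm38.p6, plus strand, with GC boxes (GGGCGG on either strand) in capitals. The Slc17a7 stretch is chr7:45163671-45163920 and that of Slc17a6 is chr7:51621580-51621829, before the first of its 2 listed starts.
Slc17a7: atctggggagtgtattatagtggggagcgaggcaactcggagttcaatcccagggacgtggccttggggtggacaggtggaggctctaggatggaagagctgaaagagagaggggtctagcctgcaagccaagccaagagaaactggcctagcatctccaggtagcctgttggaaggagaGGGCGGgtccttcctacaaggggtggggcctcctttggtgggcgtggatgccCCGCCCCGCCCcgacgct
Slc17a6: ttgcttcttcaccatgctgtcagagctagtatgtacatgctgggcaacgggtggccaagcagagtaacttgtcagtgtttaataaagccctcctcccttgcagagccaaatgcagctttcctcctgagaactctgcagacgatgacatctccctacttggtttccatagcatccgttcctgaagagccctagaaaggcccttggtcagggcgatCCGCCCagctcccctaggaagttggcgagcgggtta
Slc17a7 holds 3 GC boxes, of which 2 overlap each other close to the start, and 61.2% of its bases are G or C. Slc17a6 holds 1 GC box and 53.2% G or C, and the stretch before its second start holds 0 GC boxes and 41.2% G or C. Among the genes of the set, 21 had at least 1 promoter in the RefSeq table, with 26 promoters in all. Grin2a, Grin3a and Grm4 were among those with none. A GC box was found in 13 of the 26, against 32.7% of all 32851 promoters. The cyclic AMP response element TGACGTCA was in none of the 26 and in 1.55% of all promoters. The EGR site GCGTGGGCG, which can overlap a GC box at its end, was likewise in none of the 26 and in 0.536% of all. With sites this rare, their absence from 26 promoters says little about the set.

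Slc1a2 (GLT-1) and Slc1a3 (GLAST) clear glutamate into astrocytes, and Slc1a1 (EAAC1) takes it up into neurons. Slc1a2 was measured at 6290 in C and 6460 in CMS (log2 ratio 0.04). The other Slc1a2 probes, both for another accession, read 801 and 991 (log2 ratio 0.31, or 2.91 times the SD) and 721 and 767 (log2 ratio 0.09). All of the Slc1a2 probes were thus higher in the CMS pool by different amounts, although the brightest, at -0.14, and the dimmest were lower where the arrays were left unscaled. Slc1a3 was measured at 10214 and 9594 (log2 ratio -0.09). The Slc1a2 ratio lay above that of Slc1a3 by 0.13, with an SD of 0.08.

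Slc1a1 is the gene of the set whose probe was spotted many times, at 10 places on each array, so that its error could be measured directly. In the 9 places with no outlier spot, its signal was 4501 ± 96.2 in the C pool (SD, n = 9 spots) and ranged from 4367 to 4672. In the CMS pool it was 4215 ± 81.8 (SD, n = 9 spots), from 4147 to 4409. The pools overlapped slightly, since the brightest CMS spot exceeded the dimmest C spot. Place by place, all 10 spots were lower in the CMS pool. The log2 ratio over the 9 places was -0.09 ± 0.04 (SD), from -0.15 to -0.03. These spots repeat the measurement of 1 RNA pool per group, so their SD covers neither the scaling between the arrays nor the spread between mice. With other scalings and background corrections the log2 ratio of Slc1a1 ran from -0.26 to -0.04, and the software's error for it was 0.20.

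**Figure D4:**
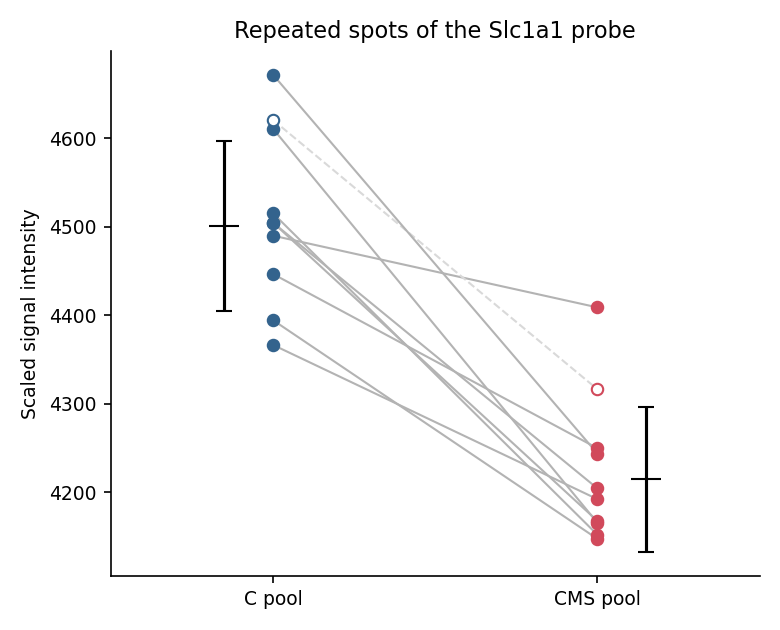
Scaled signal intensity (vertical axis, which does not start at 0) is shown for the 10 places of the Slc1a1 probe in the C pool (blue) and the CMS pool (red), with grey lines joining the same place, an open pair for the place with an outlier spot, and bars for the mean ± SD over the other 9 places. Each line falls from left to right, with means of 4501 and 4215.

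The genes that work with these receptors and transporters, 59 in fixed lists, gave 58 ratios with a median of -0.07. Of these, 18 were above 0 and 40 below, where 58.8% of all genes were below 0. None passed 2-fold, none was over 25% higher and 4 were over 20% lower. These 4 are 6.9% of the related genes, near the 7.26% of all genes. The 4 were Cacng5, an AMPA receptor auxiliary subunit, Slc7a11, the cystine and glutamate exchanger, Slc1a5, a neutral amino acid transporter of the Slc1 family, and Slc6a9, the glycine transporter GlyT1. Cacng5 went from 533 in C to 395 in CMS (log2 ratio -0.43). Slc7a11 went from 249 to 186 (log2 ratio -0.42), and Slc1a5 from 96.0 to 74.2 (log2 ratio -0.37), with a dimmer Slc1a5 probe at -0.78. Both Slc1a5 probes are in the dimmest signal range. Under normexp background correction with quantile normalization, Slc7a11 (-0.305) and Slc1a5 (-0.18) were less than 20% lower. Slc6a9, which sets the level of the NMDA receptor co-agonist glycine around synapses, was measured at 8716 and 6894 (log2 ratio -0.34). Its second probe, of the same accession, read 7095 and 6333 (log2 ratio -0.16), and Slc6a9 was less than 20% lower under 75th percentile scaling (-0.318), quantile normalization (-0.31) and the mean of its probes (-0.25).

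By list, the median was -0.09 over 12 AMPA receptor auxiliary subunits, in which Cacng7 was highest at 0.18. Over the 2 kainate receptor auxiliary subunits, Neto1 was at -0.17 and Neto2 at 0.01, with a dimmer Neto2 probe at 0.36. The postsynaptic scaffold genes, which anchor the receptors, had a median of -0.10 over 18 genes with 13 below 0, against 58.8% of all genes. They ran from Pick1, which binds AMPA receptor subunits, at -0.20 to Shank1, a master scaffold, at 0.27 (416 in C and 503 in CMS). The other Shank1 probes, of the same accession, read 341 and 344 (log2 ratio 0.01) and 253 and 223 (log2 ratio -0.18), so Shank1 has no single direction here. Glutamate metabolism and NMDA co-agonist genes had a median of -0.09 over 12 genes, with Srr, the enzyme that makes D-serine, highest at 0.07. Signalling genes downstream of the receptors had a median of -0.04 over 8, from Plcb1 at -0.11 to Plcb4 at 0.08. The 6 genes of the same families outside the set had a median of -0.08, with Slc1a4, a neutral amino acid transporter, highest at 0.04.

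**Figure D5:**
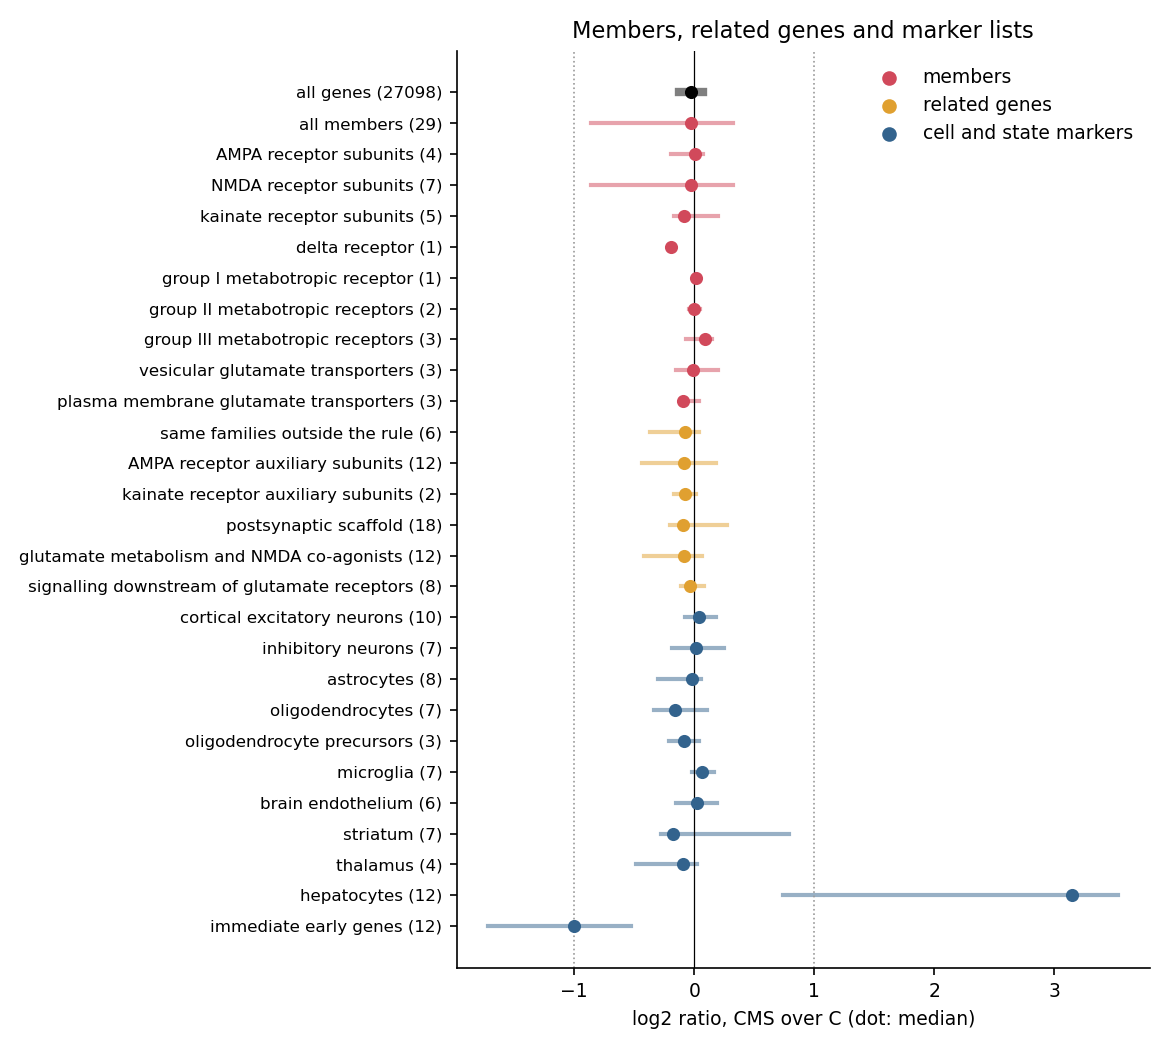
The median log2 ratio of CMS over C (dot) and the range from the lowest to the highest gene (line) are shown for the glutamate genes and their classes (red), related genes (yellow) and markers (blue), with the number of genes with a ratio in brackets. For all genes the line is the interquartile range. The medians of the glutamate gene classes and related lists lie near 0, those of hepatocyte markers at 3.15 and of immediate early genes at -1.004. The line of the NMDA receptor subunits reaches -0.86, for Grin3a.

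Markers of the cells that carry these genes were close to equal as well. Cortical excitatory neuron markers had a median of 0.04 over 10 genes, from Neurod2 at -0.08 to Camk2a at 0.18, and all were well above background. Inhibitory neuron markers had a median of 0.02 (Gad1 at -0.18 to Lhx6 at 0.25). Astrocyte markers had a median of -0.02 (Gfap at -0.30 to S100b at 0.06). Microglia were at 0.06 (Aif1 at -0.02 to Cx3cr1 at 0.16), brain endothelium at 0.02 (Slco1a4 at -0.15 to Cldn5 at 0.19), and oligodendrocyte precursors at -0.08 (Cspg4 at -0.21 to Gpr17 at 0.04). Gapdh, a common reference gene, was at 0.04 on its brightest probe.

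Oligodendrocyte and striatum markers had medians further from 0. Oligodendrocyte markers had a median of -0.16 with 6 of 7 below 0 (Mobp at -0.34 to Mbp at 0.11), and their summed signal was 56832 in C and 51184 in CMS. Thalamus markers had a median of -0.09 over 4 of 5 genes, close to that of the oligodendrocyte precursors. Tcf7l2 was at 0.02, Lef1 at -0.02, Prkcd at -0.17 and Synpo2, in the dimmest signal range, at -0.48. Striatum markers had a median of -0.17, from Penk at -0.28 to Drd2 at 0.79. The Drd2 probe did not clear background in C and read 19.0 there against 32.9 in CMS (1.73-fold). Both readings are in the dimmest signal range, and the software's error for this ratio was 0.42. The part of these marker lists in the glutamate gene ratios was not tested.

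The largest differences of the lists lay outside the glutamate genes. All 12 immediate early genes, which neurons switch on after activity, were over 20% lower in the CMS pool, and 6 were over 2-fold lower (Arc, Egr2, Fos, Nr4a1, Btg2 and Junb). The list ran from Arc at -1.72 to Egr1 at -0.53, and their summed signal was 73500 in C and 35524 in CMS. Of 12 hepatocyte markers, 11 were over 2-fold higher (Fga, Cyp2e1, Hpx, Ambp, Serpina1a, Fgb, Serpina3k, Ahsg, Ttr, Apoa1 and Alb). The list ran from Tat at 0.74 to Alb at 3.53, with a summed signal of 10392 in C and 92163 in CMS. None of the 29 glutamate genes with a ratio differed by as much as the median gene of either list. Grin3a, at -0.86, nevertheless lay inside the range of the immediate early genes, next to Npas4 at -0.83, and exceeded Tat in size. Whether the shifts of these 2 lists take part in the ratio of Grin3a or any other member was not tested.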

How the data were processed

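RNA of the PFC was hybridized as 1 pool per group on 2 one-color arrays (Agilent). Per the labels, the authors' scanner software was Agilent Feature Extraction 10.10.1.1. The authors deposited its processed signal intensities, background-subtracted and unscaled between arrays, and a table that multiplies them by 1.80 (C) and 2.05 (CMS).

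Here control and outlier spots (130 in C, 133 in CMS) were left out, spots of a probe averaged, and arrays scaled to a plain mean of 2500. The methods state an average of 2500, but the ratios of the deposited table match a mean without the lowest and highest 2% of probes, under which Grin2a passed 25%. A probe needed at least 0.5 of its spots well above background. If this failed on 1 array, its fold was taken against its own signal there or, if that was less, against the lowest signal above background. Only in the latter case is the fold a bound. A probe that failed on both arrays gave no ratio. Each gene is represented by its brightest probe (mean log2 signal). RefSeq accessions were named, without versions, through the RefSeq table of GRCm38.p6 (30725 of 59305 spots, 20654 symbols).

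Members, lists and tests were chosen with earlier results of these data known. All members, the lowest and highest gene of each list, those over 2-fold and Gapdh were to be named. The related genes over 20% lower and the pairs compared were chosen after their values were seen. Of the lists, genes not named had ratios between those given. Grin3a's neighbours lie within 5 rows and columns. Counting at 2-fold was tested on simulated arrays with larger changes in bright genes only, which leaves the smaller limits and dim probes untested. Python 3.11.15, numpy 2.4.6, pandas 2.3.3, matplotlib 3.10.9, R 4.3.3 and limma 3.58.1 were used. The number of arrays limits the precision.

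Alternatives were 5 other scalings, normexp (offset 50) with quantile normalization, the deposited table, 3 treatments of dim probes, outlier spots kept and the mean of a gene's probes.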

Additional observations from a re-analysis of the deposited data

How the results depend on the processing

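No paired analysis was possible because each group has 1 array, and for the same reason no replicate could be left out. Of 348 values of single members, 315 stayed within 0.13, the SD between spots over all probes, and 33 moved, 29 of them with no scaling. By the SD of each gene's own signal range, 38 moved, 26 of them with no scaling. Without scaling, the median over all genes was -0.20 in place of -0.03. The median of the members was then -0.20 and that of the related genes -0.25, 6 members (20.7%) and 13 related genes (22.4%) were over 20% lower beside 21.5% of all genes, and 1 member, Grin3a at -1.03, was over 2-fold lower. Under median scaling the members had a median of -0.058 and the related genes -0.10. Grin2a passed 25%, making 1 member higher, under 75th percentile scaling, trimmed mean scaling, quantile normalization, the deposited table and the mean of all probes. Under normexp with quantile normalization, Grin3a was at -0.60, the related genes had a median of -0.037 and 2 of them (3.45%) were over 20% lower beside 2.22% of all genes. With the mean of all probes, Gria3 was at -0.02, Grik2 at 0.00 and Grm4 at -0.26. Counting by 2 SD between spots of the signal range in place of 2-fold, a choice made after seeing the data, gave 7 members. Grin3a was lower under all alternatives, from -1.03 to -0.60, Grin2a was higher under all, from 0.15 to 0.38, and so was Slc17a7, from 0.03 to 0.23. Grin1, Gria4, Grik4, Grm3, Slc17a8 and Grin3b changed sign under at least 1 alternative, as did Gria1, Gria2, Grin2b, Grm2, Grm4, Grm5, Grm7 and Slc1a2. Signal over background left Grm6 with no ratio and makes Grin2d, Grin3b and Grid1 the least precise of the others. With no scaling every member ratio fell by the same amount, set by the array scaling factors of 0.853 (C) and 0.963 (CMS). Gria1, Gria2, Grin2b, Grm2, Grm4, Grm5, Grm7 and Slc1a2 were below 0 there through this shift. Why values moved under the other alternatives was not tested.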
